A study of Mus musculus with 8 samples.

Results

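The 2 control cultures of a study of mouse neural stem and progenitor cells were compared with each other at the tertiary neurosphere stage, called P2. The comparison sets 1 array of the control miRNA culture, titled miRCont_P2, against 1 array of the control shRNA culture, titled shCont_P2. These are 2 of the 8 arrays in the series, identified by title. The pair and the gene lists below were chosen with earlier results of these data known, so the list counts have no test. Both cultures came from EB3, a mouse embryonic stem cell line. Its cells were formed into embryoid bodies with Noggin, an inhibitor of BMP signalling, then dissociated and plated together with lentivirus, and carried as floating neurospheres in medium with FGF2 until RNA was taken 6 days after the secondary spheres had been passaged. The control shRNA is directed at firefly luciferase and the control miRNA at lacZ, reporter genes that a mouse genome lacks, and neither culture carried the shRNA against Nr2f1 and Nr2f2 or the miR-17 vector that the series set out to study. The other 6 arrays hold the same controls at P0, in primary neurospheres 6 days after the embryoid bodies, and the Nr2f1/2 shRNA and miR-17 cultures at both passages. The labels do not state that the cultures were started independently, nor whether the shRNA and miRNA series were grown side by side. With 1 array a side, no difference at P2 has a replicate check or a p-value. In bulk RNA of this kind, fewer cells of a type and less RNA per cell cannot be told apart. All arrays were on 1 slide, with every shRNA array in column 1 and every miRNA array in column 2, so that slide column and vector system cannot be told apart.

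Neural stem cells kept as neurospheres make neurons first and glia later, a switch that also takes place with time in the embryonic brain. Early progenitors express RNA-binding and chromatin genes of the Lin28 and Hmga2 kind, while later ones gain nuclear factor I and Sox9 activity, respond to gp130 cytokines through STAT3, and give rise to astrocytes and oligodendrocytes. Their position along the body axes is set by signals such as Sonic hedgehog from the floor plate, BMP and Wnt from the dorsal midline and FGF from local organisers, and is recorded in homeobox genes.

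Levels are given as log2 of the array's processed signal after scaling, so that 0 is the 75th percentile of an array's own signals, and a gene counted as different when its levels lay at least 2-fold apart. Of all spots other than controls, 64.8% were well above background in the control shRNA culture and 58.3% in the control miRNA culture, with upper-quartile intensities of 942 and 579 and 0 saturated spots on either. Repeated spots of 1 probe varied by a median of 4.74% and 4.60%, and different probes of 1 gene varied in their difference with a pooled SD of 0.469 log2 units, which are errors of the array and not of the culture. A gene dim on 1 of the 2 arrays was taken at that array's lowest level well above background, -5.61 for shCont_P2 and -5.0 for miRCont_P2, and its fold is then written as "at least". The labels call the cells neural stem and progenitor cells, and of the markers Nes, Sox2, Fabp7, Slc1a3, Vim, Pax6 and Hes5 all 7 were well above background on both arrays. So were all 7 markers each of astrocytes, the oligodendrocyte lineage and neurons, so that RNA of differentiating cells was measured along with that of progenitors.

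Between the control cultures 5384 of 27255 genes (19.8%) lay at least 2-fold apart at P2, 2483 higher (9.11%) and 2901 lower (10.6%) in the control miRNA culture. The median gene was 0.17 log2 units higher there, and the middle 50% of genes lay between -0.46 and 0.60. Of these genes, 4518 were measured on both arrays, and 273 differed at least 8-fold. Where a 2-fold gene had 2 or more measured probes, all its probes lay in the same direction in 978 of 1112 genes (88.0%). The split between higher and lower depended on the scaling. With each array centred on its median, 4086 genes were higher and 2135 lower, and with the arrays aligned on the spiked-in control RNA, which lowers every difference by 0.83, 516 were higher and 8352 lower. Directions below therefore hold for the 75th-percentile scaling, and any list or gene less than 0.83 above 0 turns to lower on the spike-in scale.

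**Figure D1:**
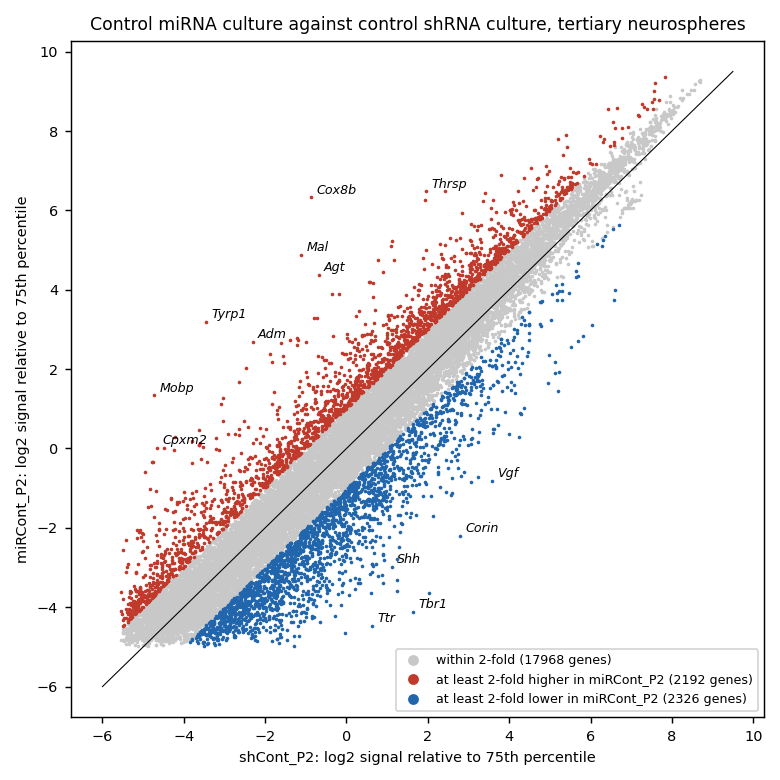
Level of each gene measured on both arrays in the control shRNA culture (x axis) and the control miRNA culture (y axis) at P2, as log2 signal relative to the array's 75th percentile, with genes at least 2-fold higher in the control miRNA culture in red, those at least 2-fold lower in blue and a line at equal levels; names mark some of the most different genes. Cox8b, Tyrp1, Mobp and Mal stand farthest above the diagonal and Tbr1, Ttr and Corin farthest below it.

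Among genes measured on both arrays, Cox8b and Tyrp1 lay farthest apart on the higher side and Tbr1 and Ttr on the lower. Cox8b, which encodes a muscle-type subunit of cytochrome c oxidase, was at -0.87 in the control shRNA culture and 6.33 in the control miRNA culture, a 147-fold difference; its probe lies at chr7:148084852-148084911 of mm9. Tyrp1, a melanosome enzyme gene, was at -3.45 and 3.19, or 99.7-fold higher, and the myelin gene Mobp was at -4.72 and 1.34, or 66.8-fold higher. Adm, which encodes the vasodilator peptide adrenomedullin, was 31.8-fold higher (-2.31 against 2.69) and Thrsp, a regulator of lipid synthesis, 23-fold higher (1.96 against 6.49). Of genes dim in the control shRNA culture, Tmem125 was at least 110-fold higher and the glutathione transferase gene Gsta2 at least 32.5-fold higher. On the lower side, Tbr1, a transcription factor of early-born cortical neurons, was at 1.63 in the control shRNA culture and -4.12 in the control miRNA culture, 54.0-fold lower. Ttr, the transthyretin gene of the choroid plexus, was 34.6-fold lower (0.64 against -4.47) and Corin, a membrane protease gene, 31.8-fold lower (2.79 against -2.20). Vgf, a neuropeptide precursor gene, was 20.9-fold lower (3.57 against -0.81). Eras, a Ras gene of embryonic stem cells, and Dlx6os1, a transcript antisense to the forebrain gene Dlx6, were at least 25.1-fold and at least 20.3-fold lower.

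**Figure D2:**
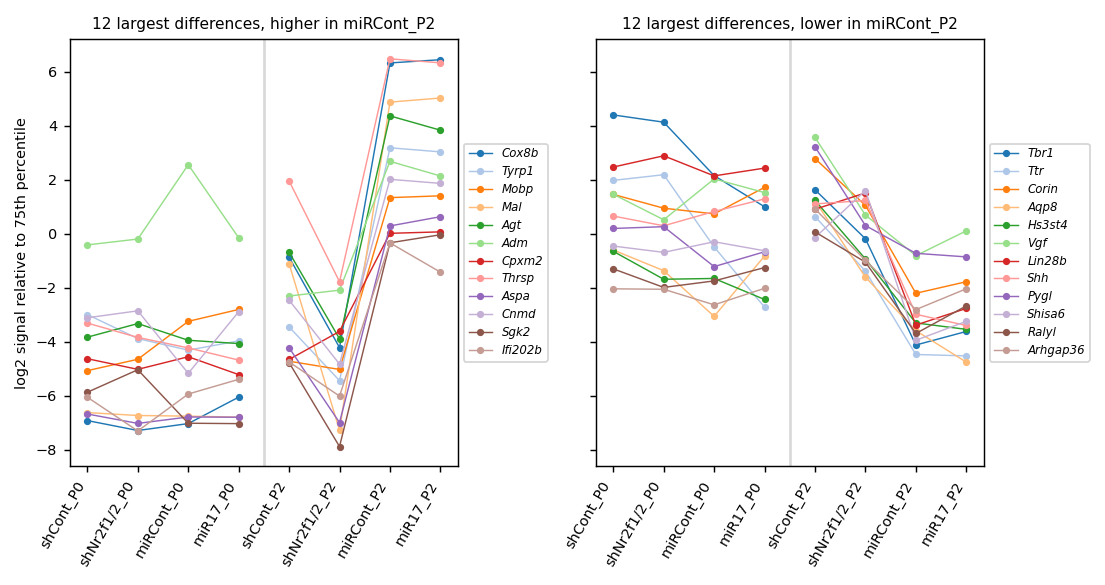
Level (log2 signal relative to the array's 75th percentile) on all 8 arrays of the 12 genes highest and the 12 genes lowest in the control miRNA culture relative to the control shRNA culture at P2, among genes measured on both. Lines join the arrays of a passage only to guide the eye. The 12 higher genes lie higher on both miRNA arrays at P2 than on either shRNA array at P2, and on the primary arrays all of them but Adm lie well below the 75th percentile, at 0 on the axis.

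Glial genes were mostly higher in the control miRNA culture. Of 22 myelin genes tested, 16 were at least 2-fold higher in the control miRNA culture and 1 lower, where 9.11% and 10.6% of all genes were, and the list median was 1.66 against 0.17 for all genes. Mal, a proteolipid of compact myelin, was at -1.11 in the control shRNA culture and 4.88 in the control miRNA culture, 63.5-fold higher. Mag, which encodes a glycoprotein of the axon-facing myelin membrane, was at 1.12 and 5.23, a 17.2-fold difference. Aspa, the oligodendrocyte enzyme that cleaves N-acetylaspartate, was at -4.23 and 0.29, a 22.9-fold difference. All 3 were also high on the miR-17 array at P2, at 5.03, 5.71 and 0.63, and all 3 were low on both primary control arrays, where Mal and Aspa were not well above background. Opalin was 10.3-fold higher, and Cldn11, a tight-junction gene of myelin, was at 1.96 and 5.01. Mbp, the gene of myelin basic protein, differed little (1.82 against 1.91), as did Myrf, the regulator of myelination (-4.24 against -4.42), and Ermn was lower, at 5.64 and 4.47. Oligodendrocyte precursor genes were closer between the cultures, with 4 of 23 at least 2-fold higher, 1 lower and a median of 0.55, which lies below the spike-in shift of 0.83. Olig2, the lineage factor, was at 2.19 and 2.20, Sox10 was at 2.70 and 3.42, and Pdgfra, the precursor growth factor receptor, was at 1.28 and 0.77. Of the members that lay apart, the retinoid-binding gene Rlbp1 was 5.86-fold higher, the sialidase gene Neu4 4.09-fold higher and the complement-like gene C1ql1 4.08-fold higher.

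Astrocyte genes differed in the same direction, with 18 of 30 at least 2-fold higher, 1 lower and a median of 1.19. Over all genes 9.11% were higher and 10.6% lower. Gfap, the intermediate filament of astrocytes, was at 1.94 in the control shRNA culture and 6.26 in the control miRNA culture, a 20.0-fold difference. Aqp4, the water channel of astrocyte endfeet, was at 2.84 and 5.92, a difference of 8.49-fold. Agt, the angiotensinogen gene, was at -0.69 and 4.37, a difference of 33.3-fold. The Nr2f1/2 shRNA array at P2 held the lowest tertiary level of all 3, at -2.74, -1.57 and -3.89, and the miR-17 array was close to the control miRNA array, at 6.44, 5.60 and 3.84. The gap junction gene Gja1 was 5.33-fold higher and the calcium-binding gene S100b 4.59-fold higher, and the most abundant members were higher as well, Apoe at 7.59 and 9.22 and Sparcl1 at 7.57 and 9.0. Not every member was higher: the glutamate transporter gene Slc1a2 was at 0.30 and 0.00 and the potassium channel gene Kcnj10 at 2.23 and 2.06. The only 2-fold lower member was Itih3, at 2.66 and 1.36.

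Genes of reactive astrocytes and the acute phase were higher too, 13 of 22 by at least 2-fold against 1 lower, with a median of 1.52. This count and those of the next lists stand beside 9.11% of all genes higher and 10.6% lower. The extracellular matrix gene Fbln5 was at -0.51 and 2.24, the TGF-beta co-receptor gene Cd109 at -1.72 and 0.96, the protease inhibitor Timp1 at -1.47 and 0.70, and the sphingosine phosphate receptor gene S1pr3 at 0.31 and 2.47. Tgm1, a transglutaminase gene, was dim in the control shRNA culture and at least 4.66-fold higher. The complement gene C3 and the lipocalin gene Lcn2, often used as signs of strong reactivity, differed by only 0.11 and 0.29, and ceruloplasmin (Cp) was lower, at -1.20 and -3.01. In the cytokine pathway that drives astrocyte genes, 7 of 21 JAK-STAT genes were at least 2-fold higher and 0 lower, with a median of 0.57 that turns negative on the spike-in scale. The largest gap belonged to a ligand: Cntf, ciliary neurotrophic factor, was at 0.64 in the control shRNA culture and 4.17 in the control miRNA culture, 11.5-fold higher, at 4.38 and -0.20 on the miR-17 and Nr2f1/2 shRNA arrays at P2, and at -0.07 and -0.13 on the primary control arrays. Its shared receptor subunit Il6st was at 1.91 and 3.43, and the feedback inhibitors Socs2 and Socs1 were at -0.38 and 2.16 and at -0.67 and 0.92, while Socs3 was at 5.46 and 6.03. Among gliogenic regulators 6 of 22 were at least 2-fold higher and 1 lower, with a median of 0.45: Sox9 was at 2.89 and 4.08, Nfia at 0.25 and 1.28, Nfix at 2.66 and 3.70, and the BMP-responsive inhibitors Id4, Id3 and Id1 were 3.44-, 3.26- and 3.25-fold higher. Hey2, a Notch effector, was 3.64-fold lower.

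The promoters of 2 of these genes are shown because both belong to the blocks above and both hold a STAT-type motif. Each is the 250 bases before the annotated start in RefSeq, build GRCm38.p6, printed along the gene's strand, with matches to TTCNNNGAA in capitals, a motif whose 2 strands read alike. Agt lies at chr8:124569707-124569956, minus strand, and Tgm1 at chr14:55713493-55713742, minus strand, the first of 2 annotated promoters of that gene.
Agt: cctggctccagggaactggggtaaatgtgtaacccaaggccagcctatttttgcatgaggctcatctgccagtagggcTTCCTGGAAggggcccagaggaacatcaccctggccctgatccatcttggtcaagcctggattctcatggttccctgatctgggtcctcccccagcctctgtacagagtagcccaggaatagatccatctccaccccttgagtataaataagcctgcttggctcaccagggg
Tgm1: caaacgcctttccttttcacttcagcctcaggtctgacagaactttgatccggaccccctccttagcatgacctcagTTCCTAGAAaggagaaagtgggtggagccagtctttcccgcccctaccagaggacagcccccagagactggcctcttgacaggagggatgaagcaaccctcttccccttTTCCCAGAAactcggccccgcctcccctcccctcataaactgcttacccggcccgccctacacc
The match in Agt spans bases 172 to 164 before the start, and Tgm1 holds matches at 173 to 165 and at 64 to 56. The motif was in 4 of 32 astrocyte promoters (12.5%) and 3 of 21 reactive astrocyte promoters (14.3%), against 7.02% of all 32851 promoters. It was also in 3 of 31 DNA replication promoters (9.68%), 2 of 21 myelin promoters (9.52%) and 0 of 24 mitosis promoters. These are matches of letters and describe the sequence alone.

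**Figure D3:**
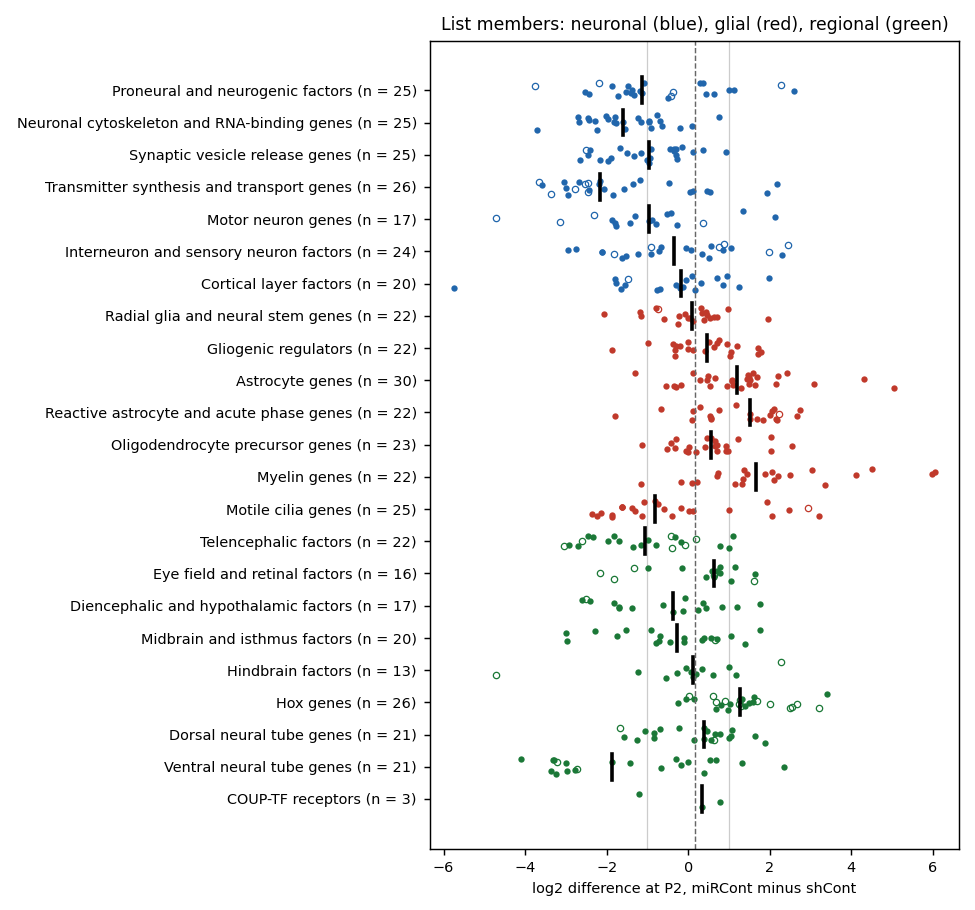
Difference between the control miRNA and the control shRNA array at P2 (log2, x axis) for each tested member of the neuronal (blue), glial (red) and regional (green) gene lists (rows), with black bars at the list medians, a dashed line at the median of all genes, grey lines at 2-fold and hollow points for members that were not well above background on both arrays. Myelin and astrocyte genes lie mostly to the right of 0, with medians of 1.66 and 1.19, and neuronal and ventral neural tube genes lie mostly to the left.

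Radial glia and neural stem genes, by contrast, differed little as a list: 1 of 22 was at least 2-fold higher and 3 lower, with a median of 0.08. Among all genes 9.11% were higher and 10.6% lower. Sox2 was at 3.27 and 3.73, Fabp7 at 7.41 and 7.53, Hes5 at 5.45 and 5.98, and Msi1 at -0.28 on both arrays. Nes, the intermediate filament gene of neural progenitors, stood out at 2.39 in the control shRNA culture and 0.32 in the control miRNA culture, 4.22-fold lower, and Vim, the filament gene that astrocytes retain, was at 6.97 and 7.94. The endothelin receptor gene Ednrb was 3.90-fold higher. Motile cilia genes, expressed by ependymal cells, split into 2 sets. Of 25 members 12 were at least 2-fold lower, among them structural genes of the axoneme such as Cfap44 (-0.27 against -2.62), Dnah11 (0.81 against -1.34) and Tekt1 (2.87 against 1.23). The 5 that were higher included regulators of multiciliated cell formation, with Gmnc at least 7.24-fold, Myb 5.54-fold and Ccno at -0.48 and 1.45, and also Ccdc153 at 9.18-fold. Mcidas, another such regulator, was at 5.07 and 6.07, and Foxj1, the master factor of motile cilia, was at 3.16 and 2.57.

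Neuronal genes lay on the opposite side. Of 25 genes of the neuronal cytoskeleton and of neuronal RNA-binding proteins, 16 were at least 2-fold lower in the control miRNA culture and 0 higher, with a median of -1.61. Counts here stand beside 10.6% of all genes lower and 9.11% higher. Nefl, the light neurofilament gene, was at 2.60 in the control shRNA culture and -1.12 in the control miRNA culture, 13.2-fold lower. Dcx, the microtubule gene of migrating neurons, was at 2.76 and 0.08, or 6.40-fold lower. Elavl2, which encodes a neuronal RNA-binding protein, was at 1.37 and -1.09, or 5.50-fold lower. On the Nr2f1/2 shRNA and miR-17 arrays at P2, Nefl was at 2.09 and -0.77, Dcx at 2.98 and 1.37, and Elavl2 at 1.83 and -0.39, so that for each of the 3 genes both miRNA arrays were below both shRNA arrays. The neurofilament genes Nefh and Nefm were 6.56- and 5.41-fold lower. Proneural and neurogenic factors were lower in 13 of 25 members and higher in 2, with a median of -1.13. Nhlh2, a helix-loop-helix factor of young neurons, was at least 12.8-fold lower, Myt1l, a repressor of non-neuronal genes, was 5.75-fold lower, and Scrt1 was 5.42-fold lower. Gadd45g, a stress and cell cycle exit gene that newborn neurons also express, went the other way, at 5.20 and 7.79.

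Synaptic vesicle genes were lower in 11 of 25 members and higher in 0, with a median of -0.96, where 10.6% and 9.11% of all genes were. The calcium sensor gene Syt1 was at 3.95 in the control shRNA culture and 1.55 in the control miRNA culture, and the active-zone scaffold gene Bsn was at -0.01 and -2.45. Snap25, a SNARE gene, differed in the opposite direction without reaching 2-fold, at 4.53 and 5.46. Genes for the synthesis and transport of transmitters had the lowest neuronal median, -2.17 as measured and -1.61 with dim members at their bound, and 17 of 26 were at least 2-fold lower and 2 higher. The neuropeptide genes Cck and Sst were at 0.90 and -2.69 and at 0.12 and -2.87, 12- and 7.94-fold lower. The dopamine transporter gene Slc6a3 was 8.20-fold lower, and the noradrenergic genes Dbh and Slc6a2 were at least 3.12- and at least 2.51-fold lower. Tac1, the substance P precursor gene, was at least 14.4-fold lower, and the kainate receptor gene Grik1 at least 17.9-fold lower.

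Genes of neuronal subtypes showed no single direction. Of 17 motor neuron genes 7 were lower and 2 higher, with a median of -0.96. The shares over all genes were 10.6% lower and 9.11% higher. The counts of higher motor neuron and cortical layer genes lay near that share. Phox2a, a factor of visceral motor and noradrenergic neurons, was not well above background in the control miRNA culture and at least 4.80-fold lower. Isl1, the pan-motor neuron factor, was at -2.96 and -4.84, yet it reached 1.88 on the Nr2f1/2 shRNA array at P2. Lhx3, a somatic motor neuron factor, was higher, at -3.88 and -1.74. Among 24 interneuron and sensory neuron factors 7 were lower and 4 higher: Lhx9 and Lhx1 were 7.77- and 6.75-fold lower, while Vsx1 was 4.93-fold and Pou4f2 at least 3.60-fold higher. Of 20 cortical layer factors 5 were lower and 2 higher, with a median of -0.17. Tbr1 was the extreme, at 4.41 and 2.16 on the primary control arrays and -0.18 and -3.62 on the Nr2f1/2 shRNA and miR-17 arrays at P2. The deep-layer factors Bcl11b and Bcl11a were 3.45- and 3.40-fold lower, and Id2, counted here as an upper-layer gene but also a BMP target, was 3.98-fold higher. The list-wide neuron marker sum was nearer between the cultures than these genes: the summed level of Tubb3, Dcx, Map2, Elavl3, Stmn2, Snap25 and Rbfox3 was 6.82 in the control shRNA culture and 6.37 in the control miRNA culture, against 7.26 and 8.67 for the astrocyte markers and 6.85 and 8.37 for those of the oligodendrocyte lineage. The part of such shifts in cell makeup in the values of single genes was not tested.

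Among regional genes, those of the ventral midline differed most. Of 21 ventral neural tube genes 11 were at least 2-fold lower in the control miRNA culture and 2 higher, with a median of -1.88 as measured and -1.43 with dim members at their bound. Over all genes 10.6% were lower and 9.11% higher. Shh, the Sonic hedgehog ligand, was at 1.11 in the control shRNA culture and -2.98 in the control miRNA culture, 17.1-fold lower; its probe lies at chr5:28783983-28784042 of mm9. Both miRNA arrays were low at P2 and both shRNA arrays were not, with 1.23 on the Nr2f1/2 shRNA array and -3.40 on the miR-17 array, and the primary control arrays lay close together at 0.66 and 0.83. The floor plate factors Foxa2 and Foxa1 were 8.03- and 7.90-fold lower, at 2.72 and -0.29 and at 3.89 and 0.91. Ntn1, the floor plate axon attractant, was at 4.26 and 0.88, the midline repellent Slit2 at 2.75 and -0.50, and the heparan sulfatase Sulf1 at 4.96 and 1.64. The readouts of the pathway did not move as one. Gli1, the target transcription factor, was 9.83-fold lower and the receptor Ptch1 was at 0.71 and -1.17, while the inhibitor gene Hhip (0.22 against 0.61) lay slightly higher, within 2-fold. The progenitor factors Nkx2-2 and Olig2 of the adjoining domains were within 2-fold as well, at 1.14 and 0.84 and at 2.19 and 2.20, and Foxn4, a factor of ventral interneuron and retinal progenitors, was higher, at -3.08 and -0.73.

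Telencephalic factors were lower in 11 of 22 members and higher in 1, with a median of -1.07. The ganglionic eminence factors Dlx1 and Dlx2 were at 0.71 and -2.22 and at 0.67 and -1.78. Dmrt3 and Sp9 were at least 5.28- and at least 4.68-fold lower. Lhx6, a factor of cortical interneurons, was the 1 higher member, at 3.55 and 4.64. Diencephalic and hypothalamic factors were lower in 7 of 17 members and higher in 2, with Fgf15 6.08-fold and Wnt8b 5.28-fold lower and Irx2 3.36-fold higher. Midbrain and isthmus factors (5 of 20 lower, 3 higher, median -0.27) differed mainly through Foxa1 and Foxa2, which the ventral list shares, and Gbx2, a hindbrain organiser factor, was 3.41-fold higher. Dorsal neural tube genes (3 of 21 lower, 4 higher, median 0.40) held Zic4 and Bmp7 at 2.97- and 2.38-fold lower and Bmp6 3.67-fold higher, and the Wnt agonist gene Rspo3 at -0.31 and 1.32. Eye field and retinal factors had 3 of 16 higher and 1 lower, hindbrain factors 1 of 13 higher and 2 lower. Of all genes 9.11% were higher and 10.6% lower.

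Hox genes, which mark the hindbrain and spinal cord, were at least 2-fold higher in 10 of 26 members and lower in 0, with a median of 1.27 as measured and 0.96 with dim members at their bound. Among all genes 9.11% were higher and 10.6% lower. Hoxb9 and Hoxd10 were dim in the control shRNA culture and at least 4.51- and at least 2.52-fold higher. The list lay near background, with a mean level of -5.45 in the control shRNA culture and -4.11 in the control miRNA culture. In these cultures 14 and 20 members were well above background. The lowest level well above background was itself higher in the control miRNA culture, -5.0 against -5.61, so the median as measured partly holds background. At P0 14 of the 26 were well above background on either control array, 4 were at least 2-fold higher and 0 lower, against 11.1% and 4.02% of all genes. When the comparison at P2 was limited to genes well above background on all 8 arrays the list median lay 0.06 below that of all genes. Of the COUP-TF nuclear receptors, whose genes the study's shRNA targets, Nr2f1 was at 4.90 and 5.67 and Nr2f2 at 2.55 and 1.36, which is 2.30-fold lower, and Nr2f6 was at 3.28 and 3.62. At P0 both Nr2f1 and Nr2f2 were lower in the control miRNA culture, at 5.07 against 6.16 and at 2.21 against 3.32. On the array with their shRNA at P2 the levels were 3.73 and 1.66.

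The cultures also differed in genes of growth and of developmental stage. Mitosis genes were at least 2-fold lower in 15 of 28 members and higher in 0, with a median of -1.16, and DNA replication genes in 5 of 29, with a median of -0.28. Over all genes 10.6% were lower and 9.11% higher. Mki67, a nuclear protein gene of cycling cells, was at 2.33 in the control shRNA culture and 0.26 in the control miRNA culture, 4.19-fold lower. Kif23, a motor gene of cytokinesis, was at -1.84 and -4.07, and the spindle checkpoint kinase gene Bub1 was at -1.29 and -3.09. All 3 were higher in both primary controls, at 4.95 and 5.02, 1.0 and 1.20, and 1.69 and 1.90, and higher on the Nr2f1/2 shRNA array at P2, at 4.91, 0.66 and 1.48. Each of the 3 was thus lower at P2 than at P0 in both control cultures, and lower still in the control miRNA culture. Of replication genes, Mcm5, a helicase subunit gene, was at 0.09 and -1.24 and E2f1, the S-phase transcription factor, at -0.97 and -2.02. Cyclin-dependent kinase inhibitors and D cyclins went in both directions. Cdkn2a, which encodes p16 and p19, was at -1.19 and 2.74, 15.2-fold higher, and its neighbour Cdkn2b was at -1.77 and 1.41, 9.11-fold higher. Cdkn1a, the p21 gene, was at 1.02 and 2.22, while Ccnd1, the growth-factor-responsive cyclin, was at 2.00 and -0.15, 4.44-fold lower.

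Promoters of 3 of the mitosis genes are shown because the list is known for CCAAT boxes and cell cycle homology regions near its start sites. They are the 250 bases before the start in RefSeq, build GRCm38.p6, along the gene's strand, with CCAAT and TTTGAA on either strand in capitals. Kif23 lies at chr9:61946800-61947049, minus strand, Mki67 at chr7:135716380-135716629, minus strand, and Bub1 at chr2:127831860-127832109, minus strand.
Kif23: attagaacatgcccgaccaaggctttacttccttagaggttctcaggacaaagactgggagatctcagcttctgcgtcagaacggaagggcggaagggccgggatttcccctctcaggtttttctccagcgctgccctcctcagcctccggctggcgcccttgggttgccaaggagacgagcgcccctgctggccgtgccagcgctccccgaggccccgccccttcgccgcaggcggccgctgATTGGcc
Mki67: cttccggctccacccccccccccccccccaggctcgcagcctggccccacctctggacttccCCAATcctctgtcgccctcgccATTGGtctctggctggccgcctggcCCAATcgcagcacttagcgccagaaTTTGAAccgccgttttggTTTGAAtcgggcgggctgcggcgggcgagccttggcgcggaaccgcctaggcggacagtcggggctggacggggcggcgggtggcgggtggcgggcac
Bub1: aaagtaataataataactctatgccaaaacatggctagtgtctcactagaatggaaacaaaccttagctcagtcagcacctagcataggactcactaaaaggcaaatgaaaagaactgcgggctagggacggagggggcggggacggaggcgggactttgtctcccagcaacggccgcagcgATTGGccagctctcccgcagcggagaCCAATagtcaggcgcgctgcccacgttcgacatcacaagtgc
Mki67 holds CCAAT at bases 188 to 184 and 141 to 137 before the start, its complement at 166 to 162, and TTTGAA at 116 to 111 and 98 to 93. Bub1 holds the complement of CCAAT at 68 to 64 and CCAAT at 42 to 38, and Kif23 the complement at 7 to 3. CCAAT was in 19 of 24 matched mitosis promoters (79.2%), in 18 of 31 DNA replication promoters (58.1%) and in 33.9% of all 32851 promoters. Among mitosis genes it was in 11 of the 12 promoters of genes at least 2-fold lower and in 8 of the 12 of genes within 2-fold. TTTGAA was in 8 of the 24, against 16.0% of all promoters.

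Early-stage temporal genes were lower in 7 of 15 members and higher in 0, with a median of -1.11, or -0.94 with dim members at their bound. Lin28b, the inhibitor of let-7 maturation, was at 0.91 in the control shRNA culture and -3.38 in the control miRNA culture, 19.6-fold lower. Igf2bp1, Hmga2 and Trim71, all known targets of let-7, were dim in the control miRNA culture and at least 14.7-, at least 14.0- and at least 13.7-fold lower, from -1.12, -1.11 and -1.22 in the control shRNA culture. At P0 the 4 genes were near level between the controls, with differences of -0.33, 0.45, 0.00 and -0.17. Lin28b was at 1.52 on the Nr2f1/2 shRNA array and -2.77 on the miR-17 array at P2. Mycn was 3.20-fold lower. Other stress and state lists differed less, and their counts stand beside 9.11% of all genes higher and 10.6% lower. In the p53 list 6 of 18 were higher and 2 lower (median 0.74), with Phlda3 3.06-fold and the death receptor gene Eda2r at least 3.69-fold higher, and Plk2 2.66-fold lower. Of 22 unfolded protein and ATF4 genes 4 were higher and 0 lower, led by Atf3 (-0.42 against 2.16) and the serine synthesis gene Phgdh (4.09 against 6.22). Hypoxia and glycolysis genes had 2 higher and 3 lower of 24, among them Hk2 at 0.22 and -3.27 against Hk1 at 4.62 and 5.69. Of 20 cholesterol synthesis genes 0 lay 2-fold apart. Interferon genes (2 of 24 higher, 3 lower) and MHC class I genes (3 of 12 higher, 1 lower, with B2m at 3.19 and 4.58) had medians of 0.14 and 0.28.

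In signalling pathways, the counts stand beside 9.11% of all genes higher and 10.6% lower in the control miRNA culture. FGF genes were lower in 11 of 25 members and higher in 3, with a median of -0.71. The ligand genes Fgf1 (0.85 against 1.86) and Fgf18 (-0.43 against 0.96) and the receptor gene Fgfr4 (-0.75 against 1.16) were the 3 higher members. The ligand genes Fgf9 and Fgf15 were 6.32- and 6.08-fold lower, and Fgf5 was at least 2.25-fold lower. Fgfbp3, which encodes an FGF-binding protein, was at 3.26 and 0.43, and Spry4, a feedback inhibitor, was at -1.57 and -3.85. Wnt genes were lower in 11 of 33 and higher in 4. The secreted inhibitors Dkk2 and Sfrp1 were at least 8.73-fold and 5.03-fold lower, and the ligand gene Wnt11 was at -1.84 and 2.17, 16.1-fold higher. BMP and TGF-beta genes were higher in 9 of 30 and lower in 4, with a median of 0.38: the ligand gene Tgfb2 was at 3.13 and 5.61, the receptor-regulated Smad9 at -2.31 and 0.15, and the extracellular antagonist Fst at 0.16 and -1.91. Notch genes were lower in 8 of 25 and higher in 0, with a median of 0.01 and a mean of -0.37, led by Hey2 and the inhibitory ligand gene Dll3 (2.39 against 0.53).

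Pigment genes were a small group outside the neural lists, named because the rule of largest differences chose Tyrp1, Dct and Gpnmb. Dct, which encodes dopachrome tautomerase, was dim in the control shRNA culture (-7.64) and at -1.40 in the control miRNA culture, at least 18.5-fold higher, and Gpnmb, a melanosomal glycoprotein gene, was at least 17.0-fold higher. On the miR-17 array at P2, Tyrp1, Dct and Gpnmb were at 3.04, 0.26 and -1.28. Mitf, the transcription factor of pigment cells, was at -0.46 and 1.19, 3.13-fold higher, while the melanosome matrix gene Pmel was at -2.43 and -1.85. The promoters of Tyrp1 and Dct are printed because the E-box CATGTG is the motif that Mitf is known to bind in pigment genes. They are the 250 bases before the RefSeq start, build GRCm38.p6, along the gene's strand, with CATGTG on either strand in capitals. Tyrp1 lies at chr4:80833963-80834212, plus strand, and Dct at chr14:118052247-118052496, minus strand.
Tyrp1: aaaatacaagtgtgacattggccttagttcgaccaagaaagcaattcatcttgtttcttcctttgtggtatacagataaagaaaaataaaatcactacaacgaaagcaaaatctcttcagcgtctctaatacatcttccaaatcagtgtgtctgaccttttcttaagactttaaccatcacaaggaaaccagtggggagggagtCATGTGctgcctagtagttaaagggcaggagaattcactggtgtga
Dct: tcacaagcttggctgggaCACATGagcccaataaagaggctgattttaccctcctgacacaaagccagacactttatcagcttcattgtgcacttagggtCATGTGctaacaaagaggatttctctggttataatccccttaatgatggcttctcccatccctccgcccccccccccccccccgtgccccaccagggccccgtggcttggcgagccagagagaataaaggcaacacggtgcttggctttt
Tyrp1 holds the motif at bases 46 to 41 before the start, and Dct its complement at 232 to 227 and the motif at 150 to 145. CATGTG was in 12.3% of all promoters of this length.

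Lists of other cell types differed in direction. Their counts at 2-fold stand beside 9.11% of all genes higher and 10.6% lower in the control miRNA culture. For the pluripotency, mesenchyme and microglia lists nothing is read from the counts. Endothelial genes were lower in 10 of 15 members and higher in 0, with a median of -1.32: Cldn5 was at -1.83 and -4.86, and Cdh5, the endothelial cadherin, was at -3.18 and not well above background in the control miRNA culture, at least 3.53-fold lower. The summed level of the 4 endothelial markers tested went the other way, 3.14 and 3.90, with 4 and 3 of the 4 well above background. That sum followed Kdr, the brightest of them, at 3.05 and 3.88. Pecam1 was near level, at -2.81 and -2.86, and Cldn5 and Cdh5 were lower. Mesendoderm genes were lower in 8 of 20 and higher in 0, with T, the mesoderm factor, at -0.48 and -3.51 and Sox17 at least 5.22-fold lower. Sox17 is also counted in the endothelial list, and Foxa2, another lower member, in the ventral list. On the Nr2f1/2 shRNA and miR-17 arrays at P2, T was at -4.26 and -4.67, so the control shRNA array alone stood high. Epithelial genes were lower in 5 of 18 and higher in 0, with the keratin Krt8 at 0.38 and -2.41. Krt8 was also low on the Nr2f1/2 shRNA and miR-17 arrays at P2, at -2.81 and -3.49. Pluripotency genes were lower in 3 of 21 and higher in 1, with Dppa5a at 0.50 and -0.97, and the 6 pluripotency markers summed to 2.33 and 1.64, with 6 and 4 well above background. Choroid plexus genes were lower in 4 of 13 members and higher in 0, with a median of 0.19: beside Ttr, the carbonic anhydrase gene Car12 was at 0.0058 and -2.28, while 9 members lay within 2-fold. Neural crest and mesenchyme genes lay within 2-fold in 18 of 26 members, with 5 lower and 3 higher. The 6 mesenchyme markers summed to 5.84 and 6.09, and Col1a1 was at 2.59 and 3.98. Of 9 microglia and blood genes 2 were higher and 1 lower, and the 4 markers tested summed to 4.79 and 5.80. That sum followed Itgam alone, at 4.75 and 5.78, whose 3 measured probes differed by -0.014 to 1.03. The lysosomal gene Cd68 was at -0.96 and 1.80, while the microglial gene Aif1 was dim in the control miRNA culture and at least 3.58-fold lower. The part of these cell types in the differences above was not tested.

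Whether the controls differed in the same way before the later passages was asked with the P0 pair, which shares no array with the P2 pair. At P0 4133 genes (15.2%) lay at least 2-fold apart, 3038 higher (11.1%) and 1095 lower (4.02%) in the control miRNA culture. Over 20884 genes measured on all 4 control arrays the differences at P2 and at P0 had a Pearson correlation of 0.12 across genes, which are not independent replicates. Of 1839 genes higher at P2, 159 (8.65%) were also 2-fold higher at P0, against 7.38% of all these genes, and of 2151 genes lower at P2, 297 (13.8%) were also lower at P0, against 3.97%. The opposite direction at P0 was seen in 69 (3.75%) of the genes higher at P2 and in 221 (10.3%) of those lower at P2. The list medians at P0 were -0.08 for myelin, -0.05 for astrocyte, -0.05 for reactive astrocyte, -0.50 for neuronal cytoskeleton, 0.17 for ventral neural tube, 0.43 for mitosis and 0.01 for early-stage genes. Tbr1 (4.41 against 2.16), Ttr (1.98 against -0.49) and Adm (-0.41 against 2.56) already lay far apart at P0, each in the direction seen at P2. Many glial genes were dim at P0 in both controls, S100b, Mal, Aspa and Opalin among them, so a difference in those could not be seen there.

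**Figure D4:**
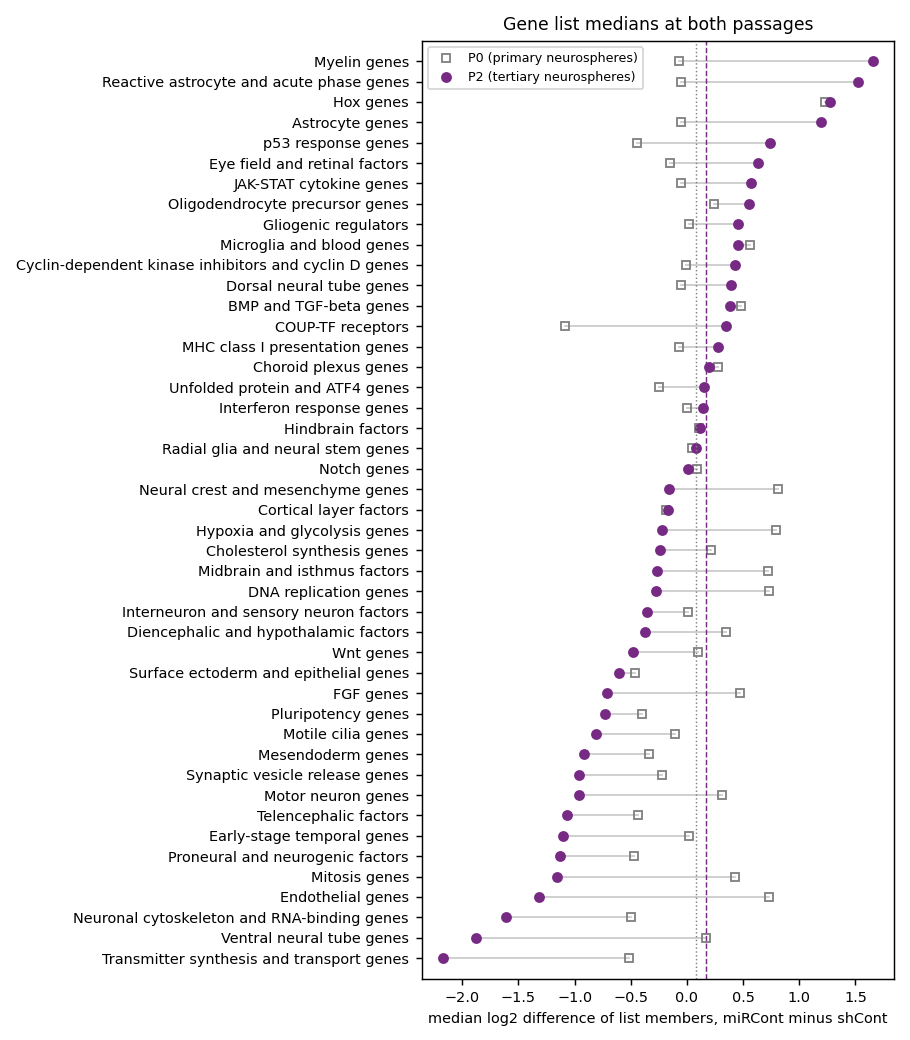
Median difference between the control miRNA and the control shRNA array (log2, x axis) for each of the 45 gene lists at P2 (filled points) and at P0 (open squares), with the medians of all genes at P2 (dashed line) and P0 (dotted line). Myelin, reactive astrocyte and Hox genes have the highest medians at P2 and transmitter, ventral and neuronal cytoskeleton genes the lowest; at P0 most of these lists lie nearer 0, apart from the Hox genes, of whose 26 members 14 were well above background on either control array at P0.

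The change of the difference with passage was tested over all 8 arrays with limma, as the interaction of vector system with passage, with 2 residual degrees of freedom. It called 2319 genes (8.51%), 485 with a higher (1.78%) and 1834 with a lower (6.73%) miRNA minus shRNA difference at P2 than at P0. The estimate uses the manipulated cultures as well as the controls, and the 2 residual degrees of freedom hold the change of each manipulation with passage. They hold no replicate spread. A manipulation effect that changed with passage widens the error and also shifts the estimate. An estimate is therefore not the change of the control difference alone. At P2 the median difference of the Nr2f1/2 shRNA array from the control shRNA array was 2.34 for mitosis genes and -2.33 for astrocyte genes. Few calls in those lists therefore do not show that the control difference stayed level. Of 21 ventral genes 10 were called lower, the densest of the regional lists, among them Shh by 4.94 (SE 0.43, adjusted p = 0.0305 in limma), Gli1, Foxa1, Foxa2, Ntn1, Sulf1 and Slit2. Among early-stage genes 4 of 15 were called lower, Trim71, Igf2bp1, Lin28b and Hmga2, and of the neuronal cytoskeleton list 5 of 25, including Nefl (adjusted p = 0.0305 in limma). On the higher side were 6 of 22 reactive astrocyte genes and 4 of 22 myelin genes, the latter Mobp, Aspa, Gsn and Tspan2, and Cntf (4.18, adjusted p = 0.0305 in limma). In the astrocyte list 1 of 30 was called higher, Agt, and 1 lower, and Gfap had an estimate of 6.76 with an adjusted p of 0.0721 in limma. That estimate includes the Nr2f1/2 shRNA array at P2, where Gfap was at -2.74. In the control shRNA and control miRNA cultures Gfap was at 1.94 and 6.26 at P2 and at -4.30 and -4.69 at P0. Of 28 mitosis genes 0 were called in either direction, Mki67 with an adjusted p of 0.0795 in limma. The count rested on single arrays: without any 1 of the 4 miRNA arrays 0 genes were called, without either Nr2f1/2 shRNA array 1299, and without either control shRNA array 3388.

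Over both passages together, with condition and passage as terms, limma called 0 genes for the control difference. At an unadjusted p under 0.05 there were 2592 genes, and the smallest adjusted p was 0.262. Among the genes with the smallest p-values, Trap1a, a tumour rejection antigen gene, was at -0.85 and -3.66 at P2 and -0.79 and -3.96 at P0, and Sdr39u1 was at 0.27 and -1.71 and at -0.87 and -3.02. The brightest probe of Orly was dim in the control shRNA culture at P2 and at least 14.1-fold higher in the control miRNA culture, a second probe differed there by 1.84 log2 units, and at P0 Orly was at -2.51 and 2.48. Finally, the other pair of tertiary arrays, miR-17 and Nr2f1/2 shRNA, carries the same vector systems with different cargo and shares no array with the control pair. Of 2074 genes higher in the control pair and measured on all 4 tertiary arrays, 1419 (68.4%) were also at least 2-fold higher on the miR-17 than on the Nr2f1/2 shRNA array and 17 were lower, against 14.6% higher among all genes so measured. Of 2289 lower genes 1267 (55.4%) were also lower in that pair and 88 higher, against 12.1% lower among all. Across 22104 genes the differences of the 2 pairs had a Pearson correlation of 0.67, a description across genes. The manipulations of Nr2f1, Nr2f2 and miR-17 are part of the second pair, so it is no replicate of the first.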

How the data were processed

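RNA from 8 neurosphere cultures was hybridised to 1-colour Agilent mouse arrays, 1 array per condition and passage. Per the file headers and the submitters' processing notes, the deposited files come from Agilent's scanner software Feature Extraction (version 10.7.3.1) and hold a processed, background-corrected intensity per spot; probe positions are those of mm9. The authors' deposited value table holds a signal per probe that equals this intensity divided by a constant per array (481 to 949). It was used as an alternative. From the deposited intensity, log2 values were computed and each array's 75th percentile subtracted. Control and outlier spots (1104) were left out, repeated spots averaged, and 39640 of 55653 probes kept, those marked well above background on 2 or more of the 8 arrays; the brightest probe stood for each of 27255 genes. Of all probes, 26425 took a current symbol through their RefSeq accession and 29256 kept the name in the files. The difference between the 2 control arrays has no test. limma 3.58.1 (R 4.3.3) tested the difference over both passages and its change with passage on all 8 arrays, with Benjamini-Hochberg adjustment over all genes at 0.05. Both fits were also run on simulated data with a planted difference between the vectors. No change of it with passage was planted, so recovery of such a change was not tested. Named genes were the 12 largest and 12 smallest differences measured on both arrays, the 8 largest bounds each way, up to 5 members of each list with the largest difference, Nr2f1 and Nr2f2, and the 10 smallest p-values over both passages. A few genes under this rule are not reported here. Other members are named, after their values were seen, to show the spread of a list or a pathway role. The arrays and gene lists were chosen with earlier results of these data known. Alternatives covered background correction, scaling, filters, probes, fold limit and arrays left out. The number of arrays limits the precision.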

Additional observations from a re-analysis of the deposited data

Results flagged for a closer look

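The limma interaction of vector system with passage, over all 8 control and manipulated arrays, called 2319 genes. As given above, that count rested on single arrays, and vector system cannot be told apart from slide column. Besides this, 2 gene lists lay on opposite sides of all genes at P2 and P0. The p53 list median was 0.57 above that of all genes at P2 and -0.53 from it at P0, and the endothelial list was at -1.48 and 0.65; neither list change was tested.

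Of the genes named for the size of their P2 difference, the following had an adjusted p under 0.05 in that limma test, and the values are how much higher or lower the fitted miRNA minus shRNA difference was at P2 than at P0, in log2 units. The fit takes in the manipulated arrays, so these values are not the change between the control cultures alone. Among genes well above background on all 4 control arrays, Tyrp1 (8.26), Thrsp (7.20) and Agt (6.82) had a higher difference at P2. Shh (-4.94), Shisa6 (-4.44), Corin (-3.94), Lin28b (-3.89), Ralyl (-2.84) and Hs3st4 (-2.70), also measured on those 4 arrays, had a lower one. The other genes were dim on at least 1 control array, so their fitted values rest partly on levels at background and give neither a measured size nor a bound. Of these, Cox8b (8.37), Sgk2 (7.72), Cnmd (6.64), Aspa (6.01), Mobp (4.41), Cpxm2 (4.24) and Ifi202b (3.49) were measured on both controls at P2 and dim on 1 or both at P0. Tmem125 (9.03), Gpnmb (5.65), Dct (5.43), Plb1 (4.90), Mmp3 (4.46) and Gsta2 (3.98) were dim in the control shRNA culture at P2 and on 1 or both controls at P0. Igf2bp1 (-5.03), Grik1 (-3.86), Hmga2 (-3.68) and Tac1 (-3.05) were measured on both controls at P0 and dim in the control miRNA culture at P2. Among all 251 named genes, 33 were called higher and 38 lower in this test, against 1.78% and 6.73% of all genes; most were named for their P2 difference, which is part of the change tested, so nothing is read from these counts.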

How the results depend on the processing

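No paired analysis was possible because the titles carry no replicate numbers and each condition has 1 array per passage; without the passage term (no replicate block) limma called 0 genes for the difference over both passages, as in every other alternative, with 902 at an unadjusted p under 0.05 against 2592, and 1368 to 2780 with 1 array left out. At P2, normexp background correction gave 3141 genes at 2-fold or more (1404 lower) in place of 5384 (2901 lower), and 3 in place of 5 lists at least 0.5 above all genes. Median centring gave 4086 higher genes and the spike-in scale 8868 genes (516 higher, 8352 lower). A limit of 3-fold gave 2124 (733 higher, 1391 lower) and of 1.5-fold 10888 (6016 higher, 4872 lower). Under normexp, the differences of Atoh7 (0.27), Neurod1 (0.0078), Nr0b1 (0.14) and Onecut3 (0.12), all dim in the control miRNA culture, turned to higher, and the Hox median lay at -0.060 from that of all genes with probes well above background on all 8 arrays. The cause was not tested. List medians were also compared over the alternatives, each less the median of all genes. Of these values 433 changed by less than the spread between probes, 16 moved further and 1 reversed. A reversal was counted only for lists at least 0.5 from all genes. Median centring, the spike-in scale and the authors' value table shift a whole array, so they could not change these values. For the change with passage, where 2319 genes were called (485 higher, 1834 lower), median centring called 5407 (3798 higher), the trended prior 3751 (1454 higher) and no filter on dim probes 524 (66 higher, 458 lower). Normexp called 1177 higher, the filter on all 8 arrays 1053 higher and quantile normalization 1119 lower. With 1 array left out the counts ran from 0 to 3388 (0 to 1204 higher, 0 to 2184 lower). Levels under about -5 lie at background and carry no order.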

Other observations

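Genes outside the neural lists were also among the widest differences at P2. The glutathione transferase gene Gsta1 was at least 15.0-fold higher and the phospholipase gene Plb1 at least 15.5-fold higher, each dim in the control shRNA culture. The kinase gene Sgk2 was at -4.77 and -0.33, and the chondromodulin gene Cnmd, known from cartilage, was at -2.46 and 2.02. The matrix protease gene Mmp3 was at least 13.1-fold higher, and Cpxm2, which encodes a carboxypeptidase-like protein, was at -4.66 and 0.02. On the miR-17 array at P2 these 6 genes were at -2.49, -2.18, -0.04, 1.87, -2.04 and 0.07.

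Lower in the control miRNA culture were Pygl, the liver form of glycogen phosphorylase, at 3.22 and -0.72, and the water channel gene Aqp8 at 1.23 and -3.59. Hs3st4, which modifies heparan sulfate, was at 1.24 and -3.30, and Arhgap36, an activator of hedgehog signalling, was at 0.92 and -2.81. Gkn2, a gastric epithelial gene, and the chemokine-binding receptor gene Ccrl1 were at least 20.8- and at least 15.6-fold lower.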
